A study of Mus musculus with 17 samples.

Results

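The 34 genes described here carry out or control glycolysis, the handling of pyruvate and lactate, and the response to low oxygen. They were chosen by name for their place in these pathways. All 34 were found among the 55450 genes of the deposited table, and all 34 reached at least 1 TPM (transcript abundance scaled to a fixed total per library) in at least 2 of the 14 bulk libraries, the minimum for testing, which 15348 genes met. By role they were 1 glucose transporter, 9 genes of upper glycolysis, 7 of lower glycolysis, 4 of lactate production and export, 5 of pyruvate entry into mitochondria, 3 of oxygen sensing and 5 targets of the hypoxia response. *Slc16a3* passed the minimum only through the lung CD44low libraries, so its difference there was set by that rule.

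Bulk RNA-seq was made from cell lines that had been derived from female FVB/NJ MMTV-PyMT mice of 10 to 12 weeks, in which the mammary tumor virus promoter drives the polyoma middle T oncogene in mammary epithelium. The 7 groups of 2 libraries were the primary tumor of the mammary fat pad (MFP) and the CD44low and CD44high cells of lymph node (LN), bone marrow (BM) or lung metastases. Dissociated organs were cultured for about a month to enrich cancer cells, which were then sorted for high EpCAM and for low or high CD44. The libraries of a group were separate clonal isolates from different mice, no CD44 status was given for MFP, and 3 single-cell libraries covered lung CD44high, lung CD44low and LN CD44high cells once each.

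Glycolysis splits glucose into pyruvate in the cytosol, and pyruvate is then either reduced to lactate and exported or carried into mitochondria for oxidation. Many tumor cells run glycolysis fast even when oxygen is present. When oxygen is short, the prolyl hydroxylases of the Egln family stop marking the transcription factor subunit *Hif1a* for destruction, and HIF complexes then switch on glycolytic genes together with genes for acid balance, mitochondrial turnover and vessel growth. *Hif1a* is controlled mostly at the level of its protein, which RNA does not show.

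The labels were checked against RNA of defining genes. The 8 epithelial markers summed to 2185 to 4434 TPM in LN and BM lines and to 7583 and 6714 TPM in MFP, but to 1.74 and 2.36 TPM in lung CD44low and 15.8 and 87.6 TPM in lung CD44high. *Epcam* itself was listed at 0 in both lung CD44low libraries and at 0.23 and 0.86 TPM in lung CD44high, which goes against the label of a sort for high EpCAM. *Cd44* RNA did not follow the CD44 labels either. It read 400 and 210 TPM in MFP, 147 and 82.7 in LN CD44low, 49.0 and 52.3 in LN CD44high, 43.8 and 74.9 in BM CD44low, 50.5 and 49.0 in BM CD44high, 12.2 and 21.6 in lung CD44low, and 21.95 and 12.1 in lung CD44high. Both LN CD44high libraries were below LN CD44low, the BM and the lung groups overlapped, and none of the 3 within-organ differences passed the test. The sort was on surface protein, which RNA does not show, and group names here follow the labels. The 8 fibroblast markers summed to 4708 and 5117 TPM in lung CD44low, to 195 and 85.7 TPM in lung CD44high, and to at most 19.9 TPM elsewhere. The 8 cycling markers summed to 36.3 and 38.7 TPM in lung CD44low and to 4.0 and 58.7 TPM in lung CD44high, against 492 to 5021 TPM in the other libraries. The epithelial and fibroblast sums differ between the 2 lung groups and between lung and other lines. The cycling sums differ between lung and other lines and overlap between the 2 lung groups. The part of these marker sums in the lung results below was not tested. In bulk RNA a smaller number of cells of a type and less RNA per cell cannot be told apart.

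HIF complexes contact DNA at a core written ACGTG or GCGTG. RefSeq start sites on GRCm38.p6 gave 48 windows of 250 upstream bases for 33 of the 34 genes. ACGTG, searched on both strands, was present in 22 of these windows (45.8%), against 16.6% of all 32851 promoter windows of the same length. GCGTG was present in 26 (54.2%), against 28.2% of all windows, and either core in 38 (79.2%), against 38.6%. The palindrome CACGTG holds ACGTG on both strands, so it counts as 2 matches. A match is a description of the letters in a window, and the base composition of the windows was not compared. The sequences below belong to the lactate dehydrogenase and lactate transporter pairs, whose mix is compared between groups below, to *Egln3*, the oxygen sensor with the most calls, and to *Bnip3*, a hypoxia target with many matches and no call. Each is written 5′ to 3′ along its own strand, with the core matches on either strand in capitals.
Ldha (chr7:46845554-46845803, GRCm38.p6, plus strand): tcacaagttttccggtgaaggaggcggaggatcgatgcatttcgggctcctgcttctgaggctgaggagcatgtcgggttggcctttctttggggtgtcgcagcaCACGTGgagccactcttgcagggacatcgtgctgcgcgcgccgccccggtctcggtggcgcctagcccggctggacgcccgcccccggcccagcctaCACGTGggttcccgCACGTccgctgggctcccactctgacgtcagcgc
Ldhb (chr6:142507958-142508207, GRCm38.p6, minus strand): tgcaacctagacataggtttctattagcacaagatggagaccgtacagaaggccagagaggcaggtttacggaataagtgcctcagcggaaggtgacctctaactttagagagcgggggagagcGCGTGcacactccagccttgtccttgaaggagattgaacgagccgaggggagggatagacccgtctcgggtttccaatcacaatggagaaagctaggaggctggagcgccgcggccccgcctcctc
Slc16a1 (chr3:104638414-104638663, GRCm38.p6, plus strand): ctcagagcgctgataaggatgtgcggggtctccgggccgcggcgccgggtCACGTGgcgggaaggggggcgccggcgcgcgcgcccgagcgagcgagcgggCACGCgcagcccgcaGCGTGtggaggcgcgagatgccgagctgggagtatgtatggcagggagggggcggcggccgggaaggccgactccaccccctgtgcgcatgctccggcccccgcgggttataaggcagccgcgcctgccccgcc
Slc16a3 (chr11:120948817-120949066, GRCm38.p6, plus strand): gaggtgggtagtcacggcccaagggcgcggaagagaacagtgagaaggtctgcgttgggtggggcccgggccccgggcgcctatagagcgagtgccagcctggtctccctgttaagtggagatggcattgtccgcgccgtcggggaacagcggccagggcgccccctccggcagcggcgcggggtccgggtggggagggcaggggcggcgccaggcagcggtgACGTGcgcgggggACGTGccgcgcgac
Egln3 (chr12:54203875-54204124, GRCm38.p6, minus strand): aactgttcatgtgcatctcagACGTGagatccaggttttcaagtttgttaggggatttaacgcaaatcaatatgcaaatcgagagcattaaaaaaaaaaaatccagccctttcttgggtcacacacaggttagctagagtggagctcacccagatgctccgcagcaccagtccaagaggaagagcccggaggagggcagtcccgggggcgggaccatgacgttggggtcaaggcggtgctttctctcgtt
Bnip3 (chr7:138909507-138909756, GRCm38.p6, minus strand): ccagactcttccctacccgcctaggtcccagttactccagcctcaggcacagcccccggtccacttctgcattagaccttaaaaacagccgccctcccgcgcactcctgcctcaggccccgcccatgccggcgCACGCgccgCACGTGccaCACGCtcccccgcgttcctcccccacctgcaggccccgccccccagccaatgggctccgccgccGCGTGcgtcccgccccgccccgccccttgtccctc
The *Ldha* window starting at chr7:46845554 held 5 matches of ACGTG on the 2 strands, of which 4 lie in 2 palindromes. The *Slc16a1* window held 4 matches, the *Slc16a3* window 2 close to its 3′ end, and the *Bnip3* window 5. *Ldhb* and *Egln3* had 1 match each. The windows of *Hif1a* and *Eno2*, not printed, held 3 and 0 matches.

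Together the 16 genes of upper and lower glycolysis held 0.771% and 0.733% of all TPM in MFP and between 0.724% and 2.20% in the 8 LN and BM libraries. In lung lines the share was 0.586% and 0.710% in CD44low cells and 0.425% and 0.522% in CD44high cells. The largest members were *Ldha*, *Pkm*, *Aldoa*, *Eno1* and *Gapdh*, and the heat map of all libraries shows their bright rows. These shares and this ranking leave out near-identical copies of some members, described below. With copies, *Eno1* in LN CD44low replicate 2 read 7680 TPM in place of 2470, and *Gapdh* 5601 TPM in place of 2768. Of the 34 genes, 29 passed the test in at least 1 of 12 comparisons (limma, with p-values adjusted over all genes by the Benjamini-Hochberg method and a threshold of 0.05), or 85.3%, beside 79.9% of all genes tested. *Aldoa*, *Pgam1*, *Pdhb*, *Egln1* and *Bnip3* passed in none.

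**Figure D1:**
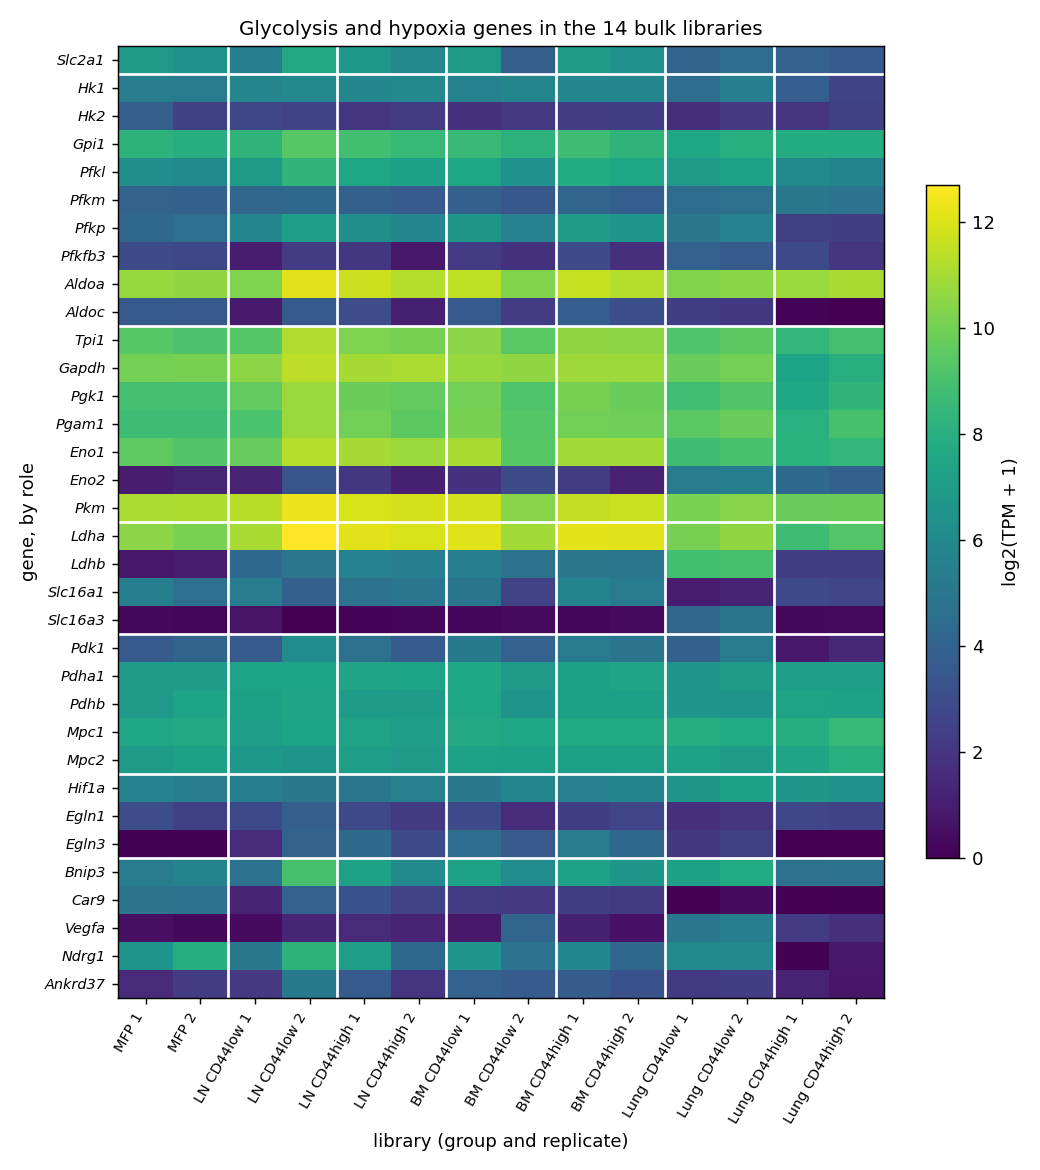
Heat map of log2(TPM + 1) for the 34 genes (rows, by role) in the 14 bulk libraries (columns, replicate 1 then 2 of each group). *Ldhb*, *Eno2* and *Slc16a3* are brightest in lung CD44low, *Egln3* is dark in MFP and lung CD44high, and the rows of the lower glycolytic enzymes differ in brightness between the LN CD44low libraries and between the BM CD44low libraries.

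In 2 groups the libraries stood apart from each other in these genes. In LN CD44low, 21 of 34 genes were more than 2-fold higher in replicate 2 and 1 was lower, where 19% of all genes tested differed by that much. In BM CD44low, 2 were more than 2-fold higher and 15 lower in replicate 2, where 25.1% of all genes differed. The median difference of replicate 2 from replicate 1 over the 34 genes was 1.19 (log2) in LN CD44low, against -0.22 over all genes, and -0.81 in BM CD44low, against 0.22 over all genes. In the other 5 groups 1 to 6 of the 34 differed by over 2-fold, against 5.73% of all genes in MFP, 5.29% in LN CD44high, 5.28% in BM CD44high, 3.44% in lung CD44low and 9.44% in lung CD44high. The LN CD44low replicate 2 library also had the lower cycling sum of its group, 492 TPM against 3447 TPM in replicate 1, and the part of this difference in the glycolytic values was not tested. In BM CD44low, replicates 1 and 2 had epithelial sums of 4434 and 2332 TPM and cycling sums of 5021 and 3538 TPM. Their part was not tested either.

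**Figure D2:**
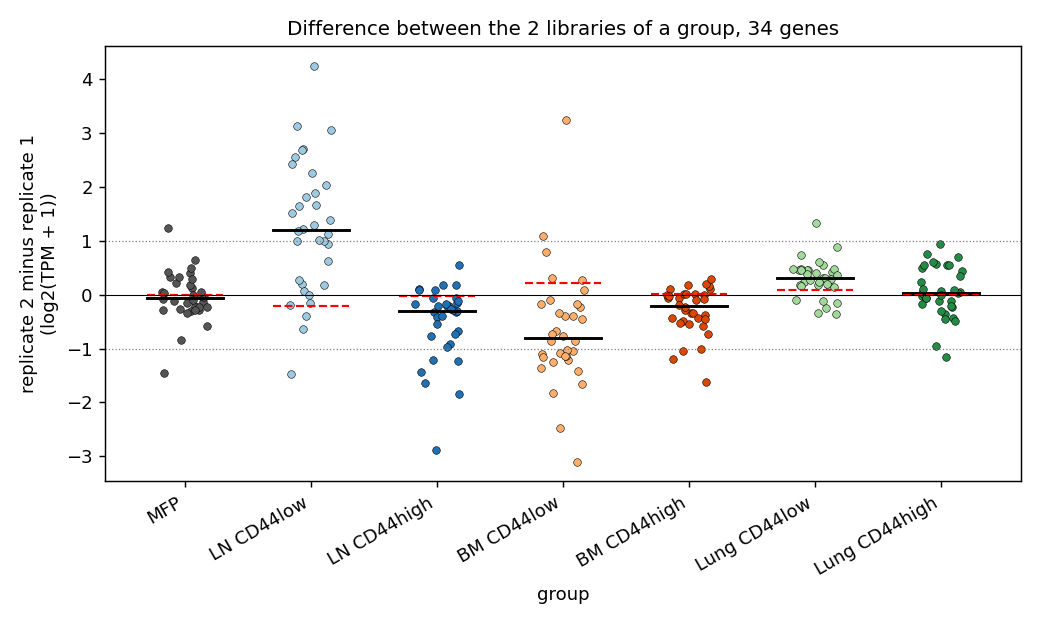
Difference between replicate 2 and replicate 1 of each group in log2(TPM + 1), with 1 point for each of the 34 genes, a black bar at their median and a red dashed bar at the median of all genes tested. Dotted lines mark a 2-fold difference, which 22 genes passed in LN CD44low, 17 in BM CD44low and at most 6 in any other group.

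*Bnip3*, which helps clear mitochondria under low oxygen, shows the size of this spread. Its level was 26.4 and 518 TPM in LN CD44low, 153 and 64.2 in LN CD44high, 152 and 68.2 in BM CD44low, 153 and 106 in BM CD44high, 143 and 218 in lung CD44low, 24.3 and 25.9 in lung CD44high, and 41.0 and 50.1 in MFP. Lung CD44high was the only group with both libraries below MFP, the libraries of LN CD44low lay on either side of MFP, and no comparison of *Bnip3* passed the test. *Pdk1* likewise read 10.99 and 69.4 TPM, *Ankrd37* 3.26 and 34.3 TPM, and *Ndrg1* 33.3 and 298 TPM in the LN CD44low libraries.

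The 6 comparisons of an organ-derived group with MFP share the same 2 MFP libraries. In LN CD44low cells 3 of the 34 genes were higher and 0 lower, where 4.5% of all genes tested were higher and 9.51% lower. In LN CD44high cells 5 were higher and 0 lower, against 5.87% and 17.9% of all genes. In BM CD44low cells 3 were higher and 1 lower, against 9.36% and 13.8%. In BM CD44high cells 5 were higher and 1 lower, against 8.38% and 18.6%, and with TPM rescaled by the median ratio between libraries 6 were higher and 0 lower. The median of the 34 fold changes was 0.60, 0.51, 0.28 and 0.48 (log2) in these 4 groups, and that of all genes -0.18, -0.30, -0.04 and -0.34. Rescaling by the median ratio moved the medians of all genes to 0.02, 0.02, 0.11 and 0.04. When each comparison was fitted on its own 4 libraries, the totals called became 1 in LN CD44low, 14 in LN CD44high (13 higher, 1 lower) and 14 in BM CD44high (13 higher, 1 lower), and with no filter that of LN CD44high was 2. The share of all genes called is not set beside these or later refit counts. Their changes are thus not read as particular to the 34 genes. The counts rest on single libraries: LN CD44low had 15 genes called without its replicate 1, 5 without either BM CD44low library and 1 without either MFP library. LN CD44high had 1 without its replicate 1, 2 without its replicate 2, 8 without either LN CD44low library, 2 and 3 without MFP replicate 1 and 2, and 3 without either library of BM CD44high or of lung CD44low. BM CD44high had 13 without either LN CD44low library and 3 without either of its own or MFP replicate 1, and BM CD44low had 2 without MFP replicate 1.

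Both lung groups were compared with the same MFP libraries. In lung CD44low cells 6, with *Slc16a3* among them, were higher and 3 lower than MFP, where 21.9% and 23.1% of all genes were, and 11 and 5 in the separate fit. In lung CD44high cells 5 were higher and 10 lower, where 14.9% and 21.2% of all genes were, and the total of 15 became 8 without MFP replicate 1 and 9 without MFP replicate 2. The median fold change over the 34 genes was 0.06 (log2) in lung CD44low, against 0.00 over all genes, and -0.54 in lung CD44high, against -0.04 over all genes. The plot of both lung groups against MFP shows *Ldhb*, *Eno2*, *Hif1a*, *Slc16a1* and *Car9* on the same side in both, with *Vegfa* called only in CD44low cells and *Gapdh*, *Hk1*, *Pfkp*, *Pdk1* and *Ndrg1* only in CD44high cells. *Vegfa* and these 5 genes also passed the direct test between the lung groups.

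**Figure D3:**
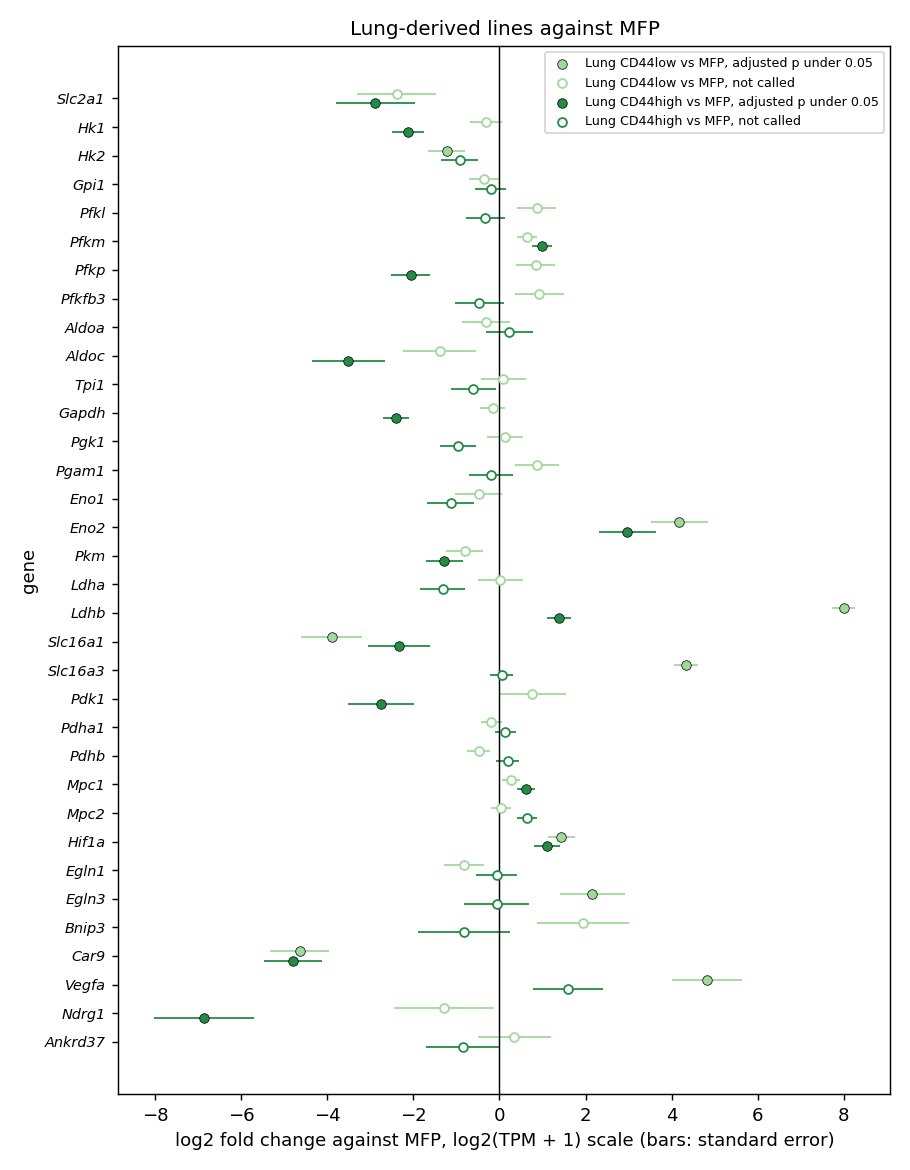
Log2 fold change (log2(TPM + 1) scale, horizontal axis) with its standard error for the 34 genes in lung CD44low (light) and lung CD44high (dark) against MFP, with filled points for an adjusted p under 0.05. Filled points number 6 to the right and 3 to the left for CD44low and 5 to the right and 10 to the left for CD44high.

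Within an organ, CD44high and CD44low cells were compared directly. In lung 0 of the 34 genes were higher and 9 lower in CD44high cells, where 12.2% of all genes were higher and 18.5% lower, and the median over the 34 was -1.08 (log2), against -0.01 over all genes. In LN and in BM none of the 34 passed by limma, where 0.378% and 0.15% of all genes did. In each organ 1 of the 34 had an unadjusted p under 0.05, *Ldhb* in LN (0.88 ± 0.27) and *Slc16a1* in BM (1.81 ± 0.71), against 10.1% and 7.4% of all genes. Without BM CD44low replicate 1 the count in BM was 4. The lung count was 15 without either LN CD44low library and 14 without either BM CD44low library, and 15 in the separate fit, of which 2 were higher and 13 lower. As an average of the 3 organs, 0 were higher and 5 lower, against 3.59% and 13.7% of all genes, and that count was 9 without LN CD44low replicate 1. It was 2 without LN CD44high replicate 2 or either library of BM CD44high or lung CD44low, and 3 without LN CD44high replicate 1 or either library of lung CD44high or MFP. It was also 3 with no filter or in the separate fit and 2 with median-ratio scaling. The 5 genes, *Pfkp*, *Gapdh*, *Ldhb*, *Slc16a3* and *Ndrg1*, were all called lower in lung and none of them passed in LN or BM. The average is thus not read as a difference shared by the organs. The 4 lung libraries against the 8 LN and BM libraries gave 9 higher and 19 lower, where 35.9% of all genes were higher and 24% lower, with a median of -0.88 (log2) against 0.20. The contrast of the CD44 difference in lung with the mean of the other organs gave 0 higher and 8 lower, where 10.6% and 11.3% of all genes were, and 5 lower with no filter. The 8 include *Ldhb*, *Gapdh* and *Pfkp*. *Slc16a3* is among the calls counted for lung, for the average of the organs, for lung lines against LN and BM lines and for this contrast, where the minimum had set its difference.

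*Slc2a1* (chromosome 4, 119108711 to 119137983 of mm10) encodes Glut1, the basal glucose transporter. Its level was 114 and 92.4 TPM in MFP, 41.5 and 203 in LN CD44low, 106 and 61.9 in LN CD44high, 121 and 13.2 in BM CD44low, 128 and 85.5 in BM CD44high, 15.9 and 22.3 in lung CD44low, and 14.9 and 11.4 in lung CD44high. All 4 lung libraries lay far below MFP, while BM CD44low replicate 2 fell within the lung range. *Slc2a1* was lower in the lung lines than in LN and BM lines by -2.19 ± 0.56 (log2 ± SE, adjusted p = 0.00721), and lower in lung CD44high than in MFP by -2.88 ± 0.92 (adjusted p = 0.0334). The latter call was lost without any 1 of the 6 MFP and lung libraries, with fold changes of -3.07 to -2.70, with no filter and with median-ratio scaling.

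Hexokinases trap glucose in the cell by phosphorylation. *Hk1* (chromosome 10, 62268855 to 62379908) read 41.0 and 37.6 TPM in MFP. Over LN and BM lines it ran from 46.1 to 62.3 TPM with a median of 57.3, against 22.9 and 43.0 TPM in lung CD44low, and 12.7 and 5.17 TPM in lung CD44high. Lung CD44high lay below every other library, and lung CD44low overlapped MFP. *Hk1* was lower in lung CD44high than in MFP (-2.13 ± 0.37, adjusted p = 0.00154) and than in lung CD44low (-1.82 ± 0.37, adjusted p = 0.00462). Both calls were lost when only the 4 libraries compared were fitted. *Hk2*, the inducible hexokinase, was low throughout, at 13.4 and 4.27 TPM in MFP and 2.18 to 5.70 TPM elsewhere. Its call in lung CD44low (-1.22 ± 0.43, adjusted p = 0.0408) was lost without either library of LN CD44high, BM CD44high, lung CD44low or lung CD44high, and without MFP replicate 1, where it was -0.50, and also with no filter, median-ratio scaling or the separate fit.

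The 3 phosphofructokinase genes catalyse the committed step, and their mix differed between groups. *Pfkl* held 59.0% to 70.6% of the summed phosphofructokinase TPM in all 14 libraries. *Pfkp* (chromosome 13, 6579768 to 6648777) held 15.9% and 23.4% in MFP, 27.1% to 35.2% in LN and BM lines, 18.7% and 20.7% in lung CD44low, and 4.33% and 4.99% in lung CD44high, where *Pfkm* held 32.2% and 33.0%. In TPM, *Pfkp* was at 18.1 and 24.3 in MFP, at 56.7 and 140 in LN CD44low, 77.8 and 58.0 in LN CD44high, 106 and 48.8 in BM CD44low, 131 and 99.9 in BM CD44high, 31.6 and 46.8 in lung CD44low, and 4.37 and 4.15 in lung CD44high. No LN or BM library overlapped MFP, and both lung CD44high libraries were below it.

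*Pfkp* rose against MFP in BM CD44high (2.39 ± 0.46, adjusted p = 0.00418), LN CD44low (2.04 ± 0.46, adjusted p = 0.0151), BM CD44low (1.73 ± 0.46, adjusted p = 0.0222) and LN CD44high (1.63 ± 0.46, adjusted p = 0.0278). It fell in lung CD44high against MFP (-2.06 ± 0.46, adjusted p = 0.00594) and against lung CD44low (-2.91 ± 0.46, adjusted p = 0.00101). The rises in LN CD44low, LN CD44high and BM CD44low were lost without either MFP library, and also without LN CD44low replicate 2 (1.39), without either LN CD44high library (1.42 and 1.84) and without BM CD44low replicate 1 (1.18). Those in both CD44low groups were also lost in separate fits, and that in LN CD44high with no filter. *Pfkm*, the muscle isoform, read 15.3 and 13.8 TPM in MFP and 32.5 and 27.4 TPM in lung CD44high, which did not overlap. It was higher in lung CD44high than MFP by 0.99 ± 0.24 (adjusted p = 0.00871), a call lost without MFP replicate 2 or lung CD44high replicate 1 (fits from 0.87 to 1.11). *Pfkl*, the liver isoform, was called higher in BM CD44high (1.48 ± 0.45, adjusted p = 0.0363), a call lost without either library of MFP, LN CD44high, BM CD44high, lung CD44low or lung CD44high (fits from 1.31 to 1.65) and with no filter.

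*Gpi1*, which isomerises glucose 6-phosphate, read 174 to 244 TPM in the 4 lung libraries and 286 to 675 TPM in the LN and BM lines, with no overlap, and was lower in lung lines by -0.83 ± 0.22 (adjusted p = 0.00805). *Aldoa*, the main aldolase, ranged from 1219 to 4522 TPM with its lowest and highest values both in LN CD44low. *Aldoc*, the brain-type aldolase, was at 11.01 and 10.7 TPM in MFP and at 0.08 and 0.00 TPM in lung CD44high (-3.51 ± 0.85, adjusted p = 0.00933), a call lost without MFP replicate 1 (fits from -3.57 to -3.46). The size of this fall depends on the 1 TPM added before taking logs. *Pfkfb3*, which makes the activator of phosphofructokinase, differed from MFP in no group by the test, and was higher in lung than in LN and BM lines (1.22 ± 0.35, adjusted p = 0.0133) in 12 of 14 fits, the exceptions leaving out lung CD44low replicate 1 or lung CD44high replicate 1 (fits from 0.98 to 1.46).

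Lower glycolysis yields ATP and NADH. *Gapdh* (chromosome 6, 125161715 to 125166467), the dehydrogenase of this stage, read 1055 and 1090 TPM in MFP, 1443 and 2768 in LN CD44low, 2054 and 2171 in LN CD44high, 1731 and 1538 in BM CD44low, 1822 and 1815 in BM CD44high, 887 and 1040 in lung CD44low, and 165 and 244 in lung CD44high. The LN and BM libraries all exceeded MFP, and lung CD44high stood below all other groups. *Gapdh* was lower in lung CD44high than in MFP by -2.41 ± 0.30 (adjusted p = 0.000184) and than in lung CD44low by -2.25 ± 0.30 (adjusted p = 0.000316), and both calls held in all 14 fits without 1 library. Its rise in LN CD44high (0.98 ± 0.30, adjusted p = 0.0387) held in 6 of them and was lost without either library of LN CD44high, BM CD44high, lung CD44low or MFP (0.94 to 1.02) and with no filter.

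Of the other lower glycolytic genes, 4 were lower in lung than in LN and BM lines, *Eno2* was higher and *Pgam1* did not pass, where 24% of all genes were lower and 35.9% higher. *Tpi1*, *Pgk1*, *Eno1* and *Pkm*, which encode triose phosphate isomerase, phosphoglycerate kinase, the common enolase and pyruvate kinase, differed by -1.24 ± 0.32, -1.40 ± 0.25, -2.05 ± 0.33 and -1.57 ± 0.26 (adjusted p = 0.00713, 0.000899, 0.000494 and 0.000575). *Eno1* read 271 to 538 TPM in the lung libraries and 674 to 2470 TPM in LN and BM libraries, without overlap. *Pkm* read 878 to 1364 TPM and 1360 to 5181 TPM, which overlapped at BM CD44low replicate 2. *Pkm* was also called lower in lung CD44high than MFP (-1.29 ± 0.43, adjusted p = 0.0402), a call kept only without a library of LN CD44low or BM CD44low (fits from -1.31 to -1.26), and lost with no filter or median-ratio scaling.

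*Eno2* (chromosome 6, 124760053 to 124769673), the neuronal enolase, went the other way. It was at 1.01 and 1.51 TPM in MFP, 1.43 and 8.91 in LN CD44low, 3.10 and 1.17 in LN CD44high, 2.66 and 6.74 in BM CD44low, 3.64 and 1.25 in BM CD44high, 37.3 and 42.3 in lung CD44low, and 19.5 and 14.2 in lung CD44high. All 4 lung libraries lay above the other 10. *Eno2* rose in lung CD44low (4.18 ± 0.66, adjusted p = 0.000636) and lung CD44high (2.97 ± 0.66, adjusted p = 0.00585) against MFP in all 14 fits without 1 library. By TPM, which corrects for transcript length, it still made up only 3.95% to 7.93% of *Eno1* plus *Eno2* in the lung libraries, and at most 0.990% elsewhere. With near-identical copies of *Eno1* added to *Eno1*, the share was 1.26% to 2.77% in the lung libraries and at most 0.313% elsewhere.

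Lactate dehydrogenase interconverts pyruvate and lactate, with *Ldha* encoding the muscle-type and *Ldhb* the heart-type subunit. *Ldhb* (chromosome 6, 142490249 to 142507957) was at 0.76 and 1.05 TPM in MFP, 19.2 and 30.3 in LN CD44low, 48.3 and 42.6 in LN CD44high, 43.5 and 26.8 in BM CD44low, 31.6 and 30.4 in BM CD44high, 456 and 515 in lung CD44low, and 3.89 and 3.99 in lung CD44high. MFP was lowest, lung CD44high next, then LN and BM lines, and lung CD44low highest, with no overlap between these 4 levels. Against MFP it rose by 8.0 ± 0.27 (log2) in lung CD44low (adjusted p = 1.48e-08), by 4.61 ± 0.27 in LN CD44high (adjusted p = 3.49e-06), and by 1.38 ± 0.27 in lung CD44high (adjusted p = 0.00336). The other LN and BM groups rose by 3.73 to 4.21, and all 6 calls held in each of the 14 fits without 1 library.

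*Ldha* (chromosome 7, 46841475 to 46855627) followed another order. It read 1446 and 1142 TPM in MFP, 2113 and 6637 in LN CD44low, 4453 and 3845 in LN CD44high, 4316 and 1925 in BM CD44low, 4644 and 4335 in BM CD44high, 1105 and 1542 in lung CD44low, and 424 and 626 in lung CD44high. All LN and BM libraries were above MFP and the lung libraries, lung CD44low overlapped MFP, and lung CD44high was below both. *Ldha* was lower in lung than LN and BM lines by -2.20 ± 0.32 (adjusted p = 0.000232). It was higher than MFP in BM CD44high (1.80 ± 0.52, adjusted p = 0.0287), lost without either BM CD44high or MFP library (1.63 to 1.97), and in LN CD44high (1.69 ± 0.52, adjusted p = 0.0413), which was kept only without a library of LN CD44low or BM CD44low (1.52 to 1.86). Both rises were lost with no filter. *Ldhb* made up 29.2% and 25.1% of *Ldha* plus *Ldhb* in lung CD44low and at most 1.37% in every other library.

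**Figure D4:**
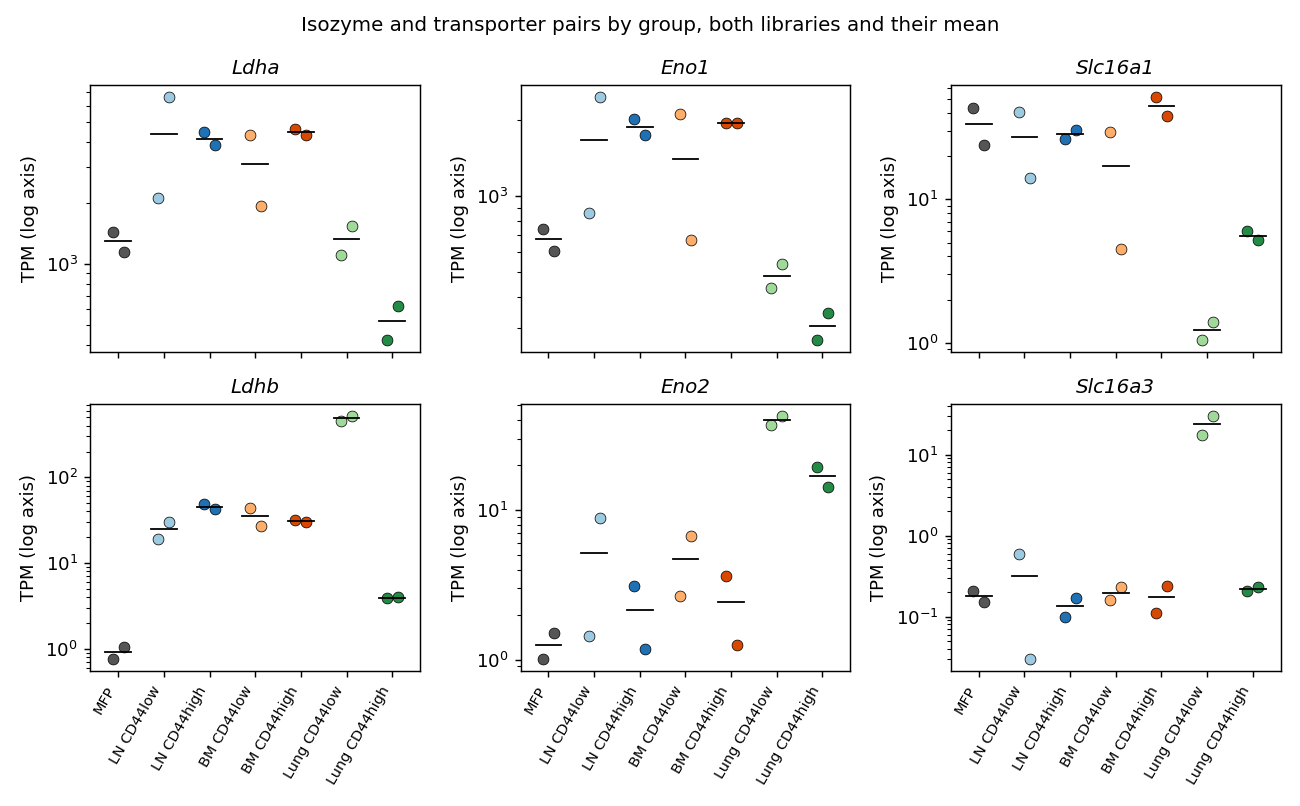
TPM on log axes of *Ldha*, *Ldhb*, *Eno1*, *Eno2*, *Slc16a1* and *Slc16a3* in the 7 groups, with both libraries as points and their mean as a bar. In lung CD44low, *Ldhb*, *Eno2* and *Slc16a3* have their highest points, at 456 and 515, 37.3 and 42.3, and 17.5 and 29.7 TPM, while *Slc16a1* has its lowest, at 1.05 and 1.40 TPM.

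Lactate leaves cells through monocarboxylate transporters, Mct1 encoded by *Slc16a1* and Mct4 by *Slc16a3*. *Slc16a3* (chromosome 11, 120948480 to 120960868) was at 17.5 and 29.7 TPM in lung CD44low and between 0.03 and 0.60 TPM in the other 12 libraries. *Slc16a1* (chromosome 3, 104638668 to 104658462) was at 43.3 and 23.8 TPM in MFP, 40.8 and 14.1 in LN CD44low, 26.5 and 30.3 in LN CD44high, 29.5 and 4.49 in BM CD44low, 51.7 and 38.0 in BM CD44high, 1.05 and 1.40 in lung CD44low, and 5.98 and 5.19 in lung CD44high. In lung CD44low *Slc16a3* made up 94.3% and 95.5% of the summed TPM of the pair, against at most 4.87% elsewhere. Since *Slc16a3* entered the test through these libraries alone, its values stand as a description. *Slc16a1* was lower there than in MFP by -3.90 ± 0.71 (adjusted p = 0.00161), in all 14 fits without 1 library. In lung CD44high *Slc16a1* was also called lower than MFP (-2.33 ± 0.71, adjusted p = 0.028), but not without any 1 of the MFP and lung libraries (-2.75 to -1.91) or with no filter.

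*Mpc1* and *Mpc2* form the mitochondrial pyruvate carrier, and *Pdha1* and *Pdhb* are subunits of pyruvate dehydrogenase. Across all 14 libraries *Mpc1* ran from 136 to 357 TPM, *Mpc2* from 94.6 to 260 TPM, *Pdha1* from 94.8 to 191 TPM and *Pdhb* from 93.6 to 173 TPM. *Mpc1* was higher in lung than LN and BM lines by 0.60 ± 0.13 (adjusted p = 0.00286), with all 4 lung libraries above the other 8, a call lost with median-ratio scaling. The smaller calls in that comparison, *Mpc2* at 0.41 ± 0.14 (adjusted p = 0.0325) and *Pdha1* at -0.37 ± 0.15 (adjusted p = 0.0481), each depended on single libraries. *Mpc2* was lost without either BM CD44high library, LN CD44low replicate 2, LN CD44high replicate 2, lung CD44low replicate 1 or lung CD44high replicate 2 (0.26 to 0.56), and *Pdha1* without any library except those of BM CD44low and lung CD44low replicate 2 (-0.47 to -0.27). Both were lost with no filter, *Mpc2* with median-ratio scaling and *Pdha1* in the separate fit. *Mpc1* was also called in lung CD44high against MFP (0.62 ± 0.21, adjusted p = 0.0437), except without either library of MFP, LN CD44high, BM CD44high or lung CD44low or lung CD44high replicate 2 (0.34 to 0.90), and lost with no filter, median-ratio scaling or the separate fit.

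*Pdk1* (chromosome 2, 71873224 to 71903858) is a kinase that switches pyruvate dehydrogenase off. It was at 11.6 and 15.8 TPM in MFP, 10.99 and 69.4 in LN CD44low, 24.5 and 11.99 in LN CD44high, 33.6 and 14.7 in BM CD44low, 38.2 and 28.1 in BM CD44high, 14.5 and 38.2 in lung CD44low, and 0.78 and 1.62 in lung CD44high. Lung CD44high lay below every other library, and BM CD44high lay above MFP and LN CD44high but within the range of LN CD44low. *Pdk1* was lower in lung CD44high than in lung CD44low (-3.51 ± 0.78, adjusted p = 0.0074), except without lung CD44low replicate 2 or lung CD44high replicate 1 (fits from -4.18 to -2.84), and than in MFP (-2.75 ± 0.78, adjusted p = 0.0197), except without either library of those groups (-3.03 to -2.48).

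Among the oxygen sensors *Hif1a* (chromosome 12, 73901375 to 73947530), the regulated subunit of HIF-1, was higher in lung lines. It read 48.4 and 41.1 TPM in MFP, between 30.3 and 56.5 TPM with a median of 44.3 over LN and BM lines, 104 and 145 in lung CD44low, and 104 and 90.04 in lung CD44high. The 4 lung libraries exceeded the other 10. *Hif1a* RNA rose against MFP in lung CD44low (1.44 ± 0.31, adjusted p = 0.00391) and lung CD44high (1.10 ± 0.31, adjusted p = 0.0189), the latter lost without either MFP library or lung CD44high replicate 1 (0.98 to 1.21). *Egln1*, the main oxygen sensor among the prolyl hydroxylases, ran from 2.06 to 13.3 TPM and was called in no comparison.

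*Egln3* (chromosome 12, 54178981 to 54203860), a prolyl hydroxylase that HIF itself induces, was near absent in MFP. It was at 0.05 and 0.04 TPM in MFP, 2.10 and 15.7 in LN CD44low, 20.01 and 6.74 in LN CD44high, 22.5 and 10.5 in BM CD44low, 37.9 and 18.3 in BM CD44high, and 3.11 and 4.26 in lung CD44low, and it was listed at 0 in both lung CD44high libraries. All LN, BM and lung CD44low libraries were above MFP. Only these libraries reached 1 TPM, so *Egln3* entered the test through the lines where it is high. With MFP near 0, the size of each rise depends on the 1 TPM added before taking logs. Against MFP *Egln3* rose by 4.71 ± 0.75 in BM CD44high (adjusted p = 0.00155), 3.98 ± 0.75 in BM CD44low (adjusted p = 0.0044) and 3.61 ± 0.75 in LN CD44high (adjusted p = 0.00729), the last lost without LN CD44high replicate 1 (2.89). The rises of 2.78 ± 0.75 in LN CD44low (adjusted p = 0.0358) and 2.15 ± 0.75 in lung CD44low (adjusted p = 0.0407) were lost without any 1 of the MFP and lung libraries (1.98 to 2.33 for lung CD44low), and the first also without LN CD44low replicate 2, at 1.57. Both rises were lost with no filter or median-ratio scaling, and the first in a separate fit. Lung CD44high, where no fold change is given, was called lower than lung CD44low (adjusted p = 0.0496), a call lost without any 1 library of MFP, lung or BM CD44high, with no filter and with median-ratio scaling.

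Of the 5 hypoxia targets 1 was higher and 1 lower than MFP in lung CD44low, where 21.9% and 23.1% of all genes were. In lung CD44high 0 of the 5 were higher and 2 lower, where 14.9% and 21.2% of all genes were. *Car9* (chromosome 4, 43506966 to 43513729), the carbonic anhydrase that exports acid, was highest in MFP at 28.6 and 26.8 TPM, with 1.44 and 14.7 in LN CD44low, 8.30 and 4.62 in LN CD44high, 3.84 and 3.27 in BM CD44low, 4.11 and 3.45 in BM CD44high, 0.00 and 0.31 in lung CD44low, and 0.00 and 0.07 in lung CD44high. No other library reached MFP, and the lung libraries were lowest. With the lung values near 0, the size of the fall there depends on the 1 TPM added before taking logs. *Car9* fell against MFP in lung CD44low (-4.65 ± 0.68, adjusted p = 0.000386), lung CD44high (-4.79 ± 0.68, adjusted p = 0.00043), BM CD44low (-2.66 ± 0.68, adjusted p = 0.0188) and BM CD44high (-2.59 ± 0.68, adjusted p = 0.0186). The 2 BM calls were lost without either MFP library, and without BM CD44low replicate 2 or either BM CD44high library (-2.75 to -2.49), both with a pseudocount of 0.1 TPM, and that in BM CD44high with median-ratio scaling.

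*Vegfa* (chromosome 17, 46016993 to 46032369), the main vessel growth factor, had the opposite order in the lung. It was at 0.45 and 0.20 TPM in MFP, 0.30 and 1.61 in LN CD44low, 1.95 and 1.44 in LN CD44high, 0.85 and 16.4 in BM CD44low, 1.14 and 0.56 in BM CD44high, 30.8 and 42.6 in lung CD44low, and 3.64 and 2.41 in lung CD44high. Both lung CD44low libraries were above all others, and BM CD44low replicate 2 exceeded lung CD44high. With MFP below 1 TPM, the size of a rise in *Vegfa* depends on the 1 TPM added before taking logs. *Vegfa* rose in lung CD44low against MFP (4.82 ± 0.82, adjusted p = 0.00104), and was lower in lung CD44high than lung CD44low (-3.23 ± 0.82, adjusted p = 0.0146), the second call lost without any 1 of the 4 lung libraries (-3.45 to -3.00).

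*Ndrg1* (chromosome 15, 66929318 to 66969640), a stress-induced gene tied to differentiation, read 102 and 242 TPM in MFP, 33.3 and 298 in LN CD44low, 140 and 18.1 in LN CD44high, 99.5 and 27.5 in BM CD44low, 60.3 and 18.9 in BM CD44high, 66.5 and 61.2 in lung CD44low, and 0.04 and 0.75 in lung CD44high. Both lung CD44high libraries lay below all others, and both MFP libraries lay above BM and lung CD44low libraries but within the range of LN CD44low. *Ndrg1* was lower in lung CD44high than in MFP by -6.87 ± 1.17 (adjusted p = 0.00136) and than in lung CD44low by -5.59 ± 1.17 (adjusted p = 0.00543), in all 14 fits without 1 library. With lung CD44high below 1 TPM, the sizes of both falls depend on the 1 TPM added before taking logs. *Ankrd37*, a small HIF target, was lower in lung than LN and BM lines (-1.80 ± 0.52, adjusted p = 0.0128), except without lung CD44low replicate 1 or lung CD44high replicate 2 (-2.18 and -1.42 at the extremes).

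Other genes of these pathways were taken from named lists. Their counts against MFP stand beside 21.9% of all genes higher and 23.1% lower in lung CD44low, and 14.9% and 21.2% in lung CD44high, and several sit near these shares. *Ldhd* and *Stc2* reached 1 TPM in the 4 lung libraries alone, *Rpia*, of the pentose phosphate genes, in 3 of them alone, and *Car12* and *Fbp1* in LN and BM libraries alone, so these genes entered the test through the lines where they are high and their calls are no support for the counts. Of 20 further hypoxia-inducible genes, all tested, 8 were higher and 2 lower than MFP in lung CD44low, and 6 higher and 3 lower in lung CD44high, with medians of 1.03 and -0.21 (log2) beside 0.00 and -0.04 over all genes. *Adm*, a vasodilator peptide, was at 353 and 401 TPM in lung CD44low and at most 4.21 TPM in the other 12 libraries, with 0 in both lung CD44high libraries. *Car12*, a second acid-handling carbonic anhydrase, ranged over LN and BM lines from 4.11 to 41.9 TPM and did not exceed 0.21 TPM in MFP and lung lines. *Ddit4*, an inhibitor of growth signaling, was at 52.4 and 56.3 TPM in MFP and 1.59 and 0.79 TPM in lung CD44high, and *Stc2*, a secreted glycoprotein, at 0.34 and 0.28 TPM and at 16.7 and 32.8 TPM.

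Of 9 other oxygen-sensing genes tested, 4 were higher than MFP in lung CD44low, *Epas1*, *Arnt2*, *P4htm* and *Cited2*, and 0 lower. In lung CD44high *P4htm* and *Cited2* were higher and *Epas1* was lower than MFP, at 0.37 and 0.16 TPM. *Arnt2*, a partner subunit of HIF complexes, read 18.8 and 24.3 TPM in lung CD44low and at most 0.82 TPM elsewhere, so its difference was set by the minimum of 1 TPM. In lung CD44low *Cited2*, which dampens HIF activity, read 632 and 634 TPM, where MFP had 45.1 and 54.7 TPM. In the same lung CD44low libraries *Epas1*, the regulated subunit of HIF-2, read 4.59 and 3.78 TPM and MFP 1.28 and 2.39 TPM, and *P4htm*, a transmembrane prolyl hydroxylase, 5.10 and 4.34 TPM and MFP 0.26 and 0.00 TPM. Of 12 other genes of pyruvate entry, 6 were higher and 3 lower in lung CD44low, and 2 and 3 in lung CD44high. *Pdk4*, a starvation-induced pyruvate dehydrogenase kinase, was at 13.2 and 12.2 TPM in lung CD44low and at 0.04 TPM or 0 elsewhere, so that it too was among the 6 by the minimum alone. *Pdk2*, its common relative, reached 87.0 and 61.4 TPM in lung CD44high, where MFP had 3.95 and 4.07 TPM. Lung CD44high was thus low in *Pdk1* and high in *Pdk2* (3.89 ± 0.46 against MFP, adjusted p = 0.00015). *Pcx*, which turns pyruvate into oxaloacetate, read 19.1 and 19.95 TPM in lung CD44high and 1.94 and 4.12 TPM in MFP, and malic enzyme (*Me1*) 12.01 and 11.8 TPM in lung CD44high and 61.4 and 111 TPM in lung CD44low.

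Of 12 further glycolytic genes tested, 3 were higher and 6 lower in lung CD44low than in MFP, and 2 and 5 in lung CD44high. *Galm*, which interconverts the anomers of glucose, reached 24.7 and 29.8 TPM in lung CD44low and was at 0.11 and 0.29 TPM in MFP, and *Tigar*, which lowers the activator of phosphofructokinase, fell in lung CD44high (-2.06 ± 0.36, adjusted p = 0.00159). *Ldhd*, the D-lactate dehydrogenase, read 3.35 and 3.95 TPM in lung CD44high and 0.11 and 0.00 TPM in MFP, and *Pgm2*, a phosphoglucomutase relative, 7.16 and 8.34 TPM and 38.7 and 34.6 TPM. Of 7 pentose phosphate genes, which route glucose to NADPH and ribose, 3 were lower in lung CD44low, and 2 higher and 2 lower in lung CD44high, where transketolase (*Tkt*) read 540 and 643 TPM, with 244 and 218 TPM in MFP and 104 and 105 TPM in lung CD44low. Transaldolase (*Taldo1*) read 234 and 233 TPM in lung CD44low and 889 and 1047 TPM in MFP. Of 4 gluconeogenic genes tested, *Fbp1* and *Fbp2*, which encode the phosphatase opposing phosphofructokinase, were higher than MFP in LN CD44high, BM CD44low and BM CD44high, where 5.87%, 9.36% and 8.38% of all genes were, and *G6pc3* was lower, where 17.9%, 13.8% and 18.6% were. Both were listed at 0 in all 4 lung libraries, where *Pck2*, the mitochondrial phosphoenolpyruvate carboxykinase, was at 84.2 and 120 TPM in CD44low and 37.4 and 30.4 TPM in CD44high cells.

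Several members have near-identical copies in the genome, between which reads can be divided. The 3 copies of *Eno1* found by alignment held 66.9% to 73.3% of the summed TPM of *Eno1* and its copies, and the 59 copies of *Gapdh* 46.9% to 55.6%. The copies of *Pgam1* held from 4.10% to 59.98%, the widest range between libraries, and that of *Ldhb* at most 19.2%. *Mpc1*-ps, matched to *Mpc1* by its symbol and not by alignment, held 21.5% to 29.5% of their sum. When each member was summed with its copies of either kind, all 92 calls made over the 12 comparisons were made again in the same direction, 1 call was added, *Gapdh* in BM CD44high against MFP (0.92, adjusted p = 0.0495), and *Pgam1* again passed in none, with a lowest adjusted p of 0.128.

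The single-cell libraries gave values without a test, as 1 library stood for each group. Cells were kept above 250 genes and below 10% mitochondrial counts, by which 1236 of 3623 barcodes remained for lung CD44high, 348 of 2808 for lung CD44low and 2562 of 3297 for LN CD44high, with medians of 557, 4011 and 585 counts per cell. Barcodes are numbered in these tables, so barcodes shared between libraries were not counted. The 34 genes summed to 77.3 counts per 10000 in lung CD44high (95% Poisson interval 76.1 to 78.5), 130 in lung CD44low (129 to 132) and 142 in LN CD44high (141 to 144). These intervals cover counting error only. No doublets were called or removed. The 8 epithelial markers summed to 9.18 counts per 10000 in LN CD44high, 4.27 in lung CD44high and 0.878 in lung CD44low, and the 8 fibroblast markers to 0.115, 0.267 and 21.4. The 8 cycling markers summed to 14.8, 12.9 and 4.06, so that lung CD44high stood close to LN CD44high here, where in bulk it had been far below. The part of these markers in the values was not tested.

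*Gapdh* read 9.07 counts per 10000 in lung CD44high (8.67 to 9.47), 13.8 in lung CD44low (13.4 to 14.3) and 19.5 in LN CD44high (19.2 to 19.9), the order of the bulk groups. *Ldha* read 6.29 (5.97 to 6.63), 16.2 (15.7 to 16.8) and 17.02 (16.7 to 17.4), and *Eno1* 6.29, 15.4 and 16.8. Here lung CD44low lay close to LN CD44high in both genes, where in bulk its *Ldha* and *Eno1* were well below LN CD44high. *Aldoa* read 11.3 (10.8 to 11.7) in lung CD44high, above lung CD44low at 7.16 (6.81 to 7.52), the reverse of *Gapdh*, *Ldha* and *Eno1*, and in bulk too both lung CD44high libraries (1767 and 2083 TPM) exceeded both lung CD44low libraries (1249 and 1384 TPM).

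*Ldhb* read 0.0136 (0.0028 to 0.0397) in lung CD44high, 0.410 (0.330 to 0.503) in lung CD44low and 0.235 (0.195 to 0.280) in LN CD44high. *Slc16a3* had 42 counts in lung CD44low, 4 in LN CD44high and 0 in lung CD44high, where 3 counts of the total would be 0.0136 per 10000. *Slc16a1* was at 0.632 in LN CD44high, 0.240 in lung CD44high and 0.212 in lung CD44low, and the lung intervals overlapped. *Slc16a3* was thus counted mainly in lung CD44low in both assays, whereas the lung groups had not overlapped in *Slc16a1* in bulk, without a call by the test. Within lung CD44low single cells, *Ldhb* had 91 counts and *Ldha* 3602, and *Slc16a3* had 42 and *Slc16a1* 47. Both *Ldhb* and *Slc16a3* thus made up a smaller part of their pairs there than in bulk. *Eno2*, *Hif1a*, *Bnip3*, *Vegfa*, *Ndrg1* and *Slc2a1* were each highest in lung CD44low, at 0.527, 1.97, 1.03, 1.01, 0.684 and 2.85 counts per 10000. Copies were also counted in single cells. With its copy added, *Bnip3* read 1.87 in lung CD44low, 0.470 in lung CD44high and 0.906 in LN CD44high, beside 1.03, 0.136 and 0.435 without it. *Eno1* with its copy read 19.8, 9.18 and 23.5 in the same libraries, so the order of the 3 libraries was kept in both genes. *Slc2a1* had been lower in lung than in LN lines in bulk, and its single-cell values in lung CD44high (0.434, 0.352 to 0.530) and LN CD44high (0.460, 0.404 to 0.521) overlapped. In lung CD44low *Slc2a1* read 2.85 (2.63 to 3.08), above LN CD44high. The order was reversed in bulk, with lung CD44low at 15.9 and 22.3 TPM and LN CD44high at 106 and 61.9 TPM.

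**Figure D5:**
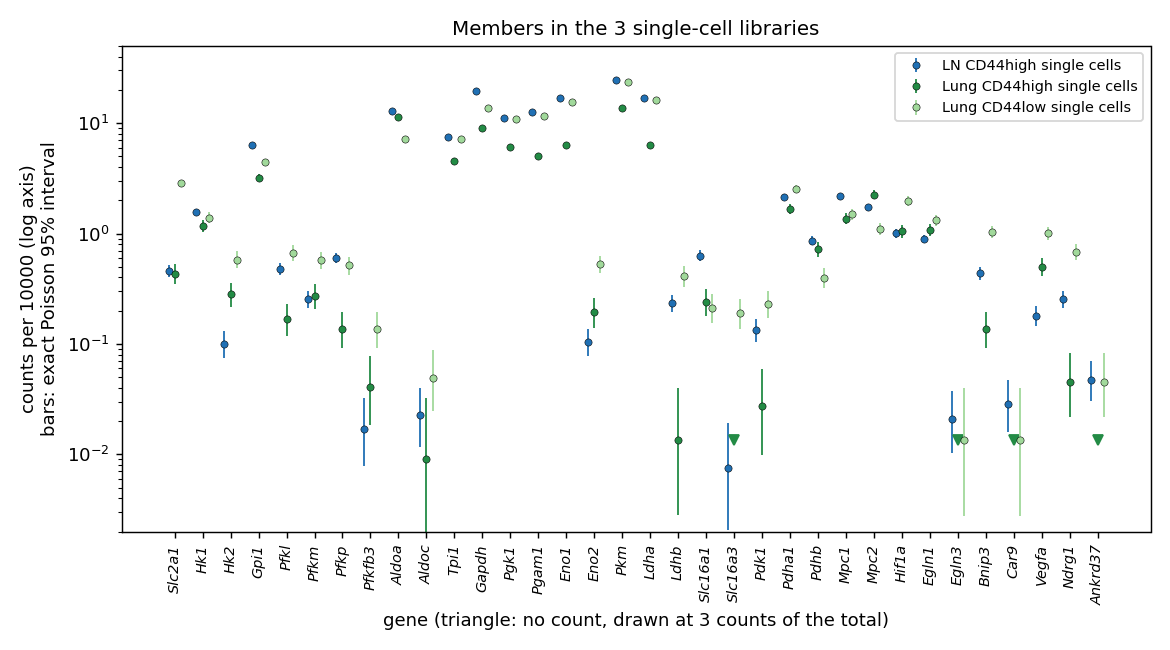
Counts per 10000 (log axis) of the 34 genes in the LN CD44high, lung CD44high and lung CD44low single-cell libraries, with exact Poisson 95% intervals and triangles at 3 counts where a gene had none. The points of lung CD44high lie lowest for *Gapdh*, *Ldha*, *Eno1* and *Ldhb* but not for *Aldoa*, and *Slc16a3* has a point at 0.189 in lung CD44low.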

How the data were processed

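RNA from each line was made into cDNA by a modified SMART-seq2 protocol, aligned by the authors to mm10 with STAR and quantified with RSEM on GENCODE v21. The deposited bulk values are TPM, which keep no library depth, and the bulk counts were not used here. Each library had 11508 to 13052 genes at 1 TPM or more. For single cells the authors deposited counts per gene and barcode, made on the ddSeq platform with kallisto.

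Genes with at least 1 TPM in 2 of 14 libraries were tested on log2(TPM + 1) with limma 3.58.1 (R 4.3.3, 7 group means, trended prior, 7 residual degrees of freedom) and Benjamini-Hochberg adjustment. The study's count-based test was not used, as TPM need a log-scale test. A permutation of 2 against 2 libraries cannot give a two-sided p below 0.333, so p-values come from this pooled fit and measure the spread between clonal isolates. Copies were found with minimap2 2.31-r1302 (at least 80% of the coding sequence at 90% identity), a setting added after seeing the data. Positions of genes were read from GENCODE vM21 (mm10), and *Aldoa*, listed under 2 identifiers, is the one with the higher mean.

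The members and lists were chosen with earlier results of these data known. All 34 members are named, and at most 4 genes of each other list, those with the largest fold change among genes with an adjusted p under 0.05 and an absolute log2 fold change over 2 in any comparison. Marker lists, named by their counts, also covered macrophages, whose 6 markers summed to at most 39.3 TPM, and endothelium, whose 5 summed to at most 1.03 TPM. Alternatives were another pseudocount, filter and scaling, a replicate block, separate fits and the omission of each library.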

Additional observations from a re-analysis of the deposited data

Results flagged for a closer look

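For 8 of the 34 genes the difference between CD44high and CD44low cells was not the same in lung as in the other organs, by the contrast of the lung difference with the mean of the LN and BM differences (limma, adjusted p under 0.05 over all genes). All 8 contrasts were negative, where 10.6% of all genes had a positive call and 11.3% a negative call. The count was 15 without LN CD44low replicate 2, 4 without lung CD44low replicate 2, and 5 without BM CD44high replicate 1, LN CD44high replicate 1 or either lung CD44high library. The 8 values below are log2 differences with their SE.

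*Ldhb* had the largest contrast, -6.99 ± 0.34 (adjusted p = 3.13e-07), with CD44 differences of -6.62 in lung, 0.88 in LN and -0.14 in BM. *Gapdh* had -2.37 ± 0.36 (adjusted p = 0.00117), from -2.25, 0.08 and 0.16. *Pfkp* had -3.04 ± 0.56 (adjusted p = 0.0036), from -2.91, -0.40 and 0.66. These 3 calls were kept without any 1 library. The value of *Slc16a3* was -4.18, which stands as a description, since the gene passed the minimum level only through the lung CD44low libraries.

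*Hk1* had -1.93 ± 0.45 (adjusted p = 0.0134), from -1.82 in lung, 0.02 in LN and 0.19 in BM, lost without lung CD44low replicate 2 (fits from -2.50 to -1.35). *Pdk1* had -3.44 ± 0.95 (adjusted p = 0.0282), from -3.51, -0.68 and 0.53, lost without BM CD44high replicate 1, LN CD44high replicate 1, lung CD44low replicate 2 or either lung CD44high library (-4.11 to -2.77) and with no filter. *Ndrg1* had -4.79 ± 1.43 (adjusted p = 0.0385), from -5.59, -0.96 and -0.62, lost in 10 of 14 fits and kept only without BM CD44low replicate 1, BM CD44high replicate 2, LN CD44low replicate 2 or LN CD44high replicate 2 (-5.58 to -4.01), and lost with no filter and in the separate fit. *Egln3*, listed at 0 in both lung CD44high libraries, had a fitted contrast of -3.00 ± 0.92 (adjusted p = 0.0437), which depends on the pseudocount, and was kept only without BM CD44low replicate 1, BM CD44high replicate 2, LN CD44high replicate 2 or either LN CD44low library (-3.61 to -2.39), and lost with no filter, median-ratio scaling or the separate fit.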

How the results depend on the processing

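No call of a single gene changed direction under any setting. Of the 92 calls, 3 were lost with a pseudocount of 0.1 TPM, 21 with no filter, 0 with a filter of 5 TPM, 15 with median-ratio scaling, 13 with the replicate block, 12 when each comparison was fitted on its own groups, 0 when copies were summed, and 214 of 1288 when 1 library was left out. With only the groups compared, the number of the 34 genes called became 1 in LN CD44low, 14 in LN CD44high, 14 in BM CD44high and 16 in lung CD44low against MFP, 15 in lung CD44high against CD44low and 3 over the 3 organs. With no filter it became 2 in LN CD44high against MFP, 3 over the 3 organs and 5 in the contrast of the lung CD44 difference with that of the other organs. Over the 3 organs it was 2 with median-ratio scaling and 3 with the replicate block. Without 1 library the counts ran from 1 to 15 in LN CD44low, 1 to 8 in LN CD44high, 2 to 6 in BM CD44low, 3 to 13 in BM CD44high, 7 to 13 in lung CD44low and 8 to 17 in lung CD44high against MFP. They ran from 0 to 0 in LN, 0 to 4 in BM and 6 to 15 in lung for CD44high against CD44low, 2 to 9 over the 3 organs, 21 to 30 for lung against LN and BM lines, and 4 to 15 for the contrast between organs. The cause of these changes was not tested, beyond the change in genes and libraries each setting makes. The share of all genes called under each setting is not set beside these counts. A lone library left in a group was assumed to vary like the other groups. Same-numbered libraries deviated together with r of -0.194 to 0.168 over 21 pairs of groups, over 0.1 in 3 of them, so the number was taken as a name only. Median-ratio scaling moved the mean summed TPM of the 16 glycolytic genes from 7520 to 6187 in MFP, from 14369 to 17182 in LN CD44high and from 13870 to 16976 in BM CD44high. In single cells the 34 genes summed to 83.6, 71.0 and 62.3 counts per 10000 in lung CD44high with more than 500 genes per cell, with all barcodes and as a mean over cells, against 77.3. In lung CD44low they summed to 121 with all barcodes and 117 as a mean over cells, against 130. In LN CD44high the values were 149 with more than 500 genes, 141 with a limit of 20% mitochondrial counts, 139 with all barcodes and 123 as a mean over cells, against 142. Bulk depth is not known from TPM, and 1 single-cell library a group gives no spread.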
